A study of Mus musculus with 30 samples.

Results

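The interferon-gamma inducible GTPases described here are 10 genes, chosen by symbol: Irgm1, Irgm2, Igtp, Iigp1, Ifi47, Tgtp1, Gbp2, Gbp3, Gbp5 and Gbp7. Each had 1 row among the 32285 genes of the 4 single-cell RNA-seq libraries. No cut on measured values was used for the choice, but earlier results of these data were known when it was made. The libraries were made with a 10x Chromium 3′ kit from mouse spleen cells depleted of red blood cells. Of the 4, 2 carry the genotype label Smc3-WT and 2 the label Smc3-cKO. The Smc3 gene codes for a core subunit of cohesin, the ring complex that forms chromatin loops, and the wider study asks how cohesin and the factor PU.1 act in conventional dendritic cells (cDCs). The labels give the genotype of these libraries and nothing on the Cre driver, the cells in which Smc3 is lost, or the number of animals per library. The shared protocol text gives an age of 6 to 8 weeks for mice whose cells were sorted. Whether same-genotype libraries stem from different animals is not given, so p-values measure only the spread between libraries, which may be technical.

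The members belong to a pair of protein families that interferon-gamma, made mainly by natural killer (NK) and T cells, induces in most cells. The immunity-related GTPases (IRGs) gather on the membrane around intracellular microbes such as Toxoplasma and help to break it. Among them Irgm1, Irgm2 and Igtp (also called Irgm3) are regulators that sit on the cell's own membranes and keep the others inactive there, and Iigp1 (Irga6), Ifi47 (Irgd) and Tgtp1 (Irgb6) are effectors. The guanylate-binding proteins (GBPs), here Gbp2, Gbp3, Gbp5 and Gbp7, are larger GTPases that join the same membranes, and Gbp5 is also known for its part in inflammasome activation.

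The regulatory sequence in front of these genes is shown because it holds the letters through which interferon signals are known to act. RefSeq (build GRCm38.p6) promoter windows, from 250 bases before to 50 after an annotated start site, were at hand for 9 of the 10 members, all but Iigp1. The 100 bases before the start site are printed 5′ to 3′ on the gene's own strand. Capitals mark matches on either strand to the interferon-stimulated response element (ISRE, searched as GAAA and GAAA with any 2 bases between them), the gamma-activated site (GAS, TTCNNNGAA), and the composite element bound by PU.1 with IRF4 or IRF8 (EICE, GGAA and GAAA with any 2 bases between them). The windows lie at chr11:48871421-48871520 (minus strand), chr11:58214877-58214976 (plus strand), chr11:58199456-58199555 (plus strand), chr11:49076487-49076586 (plus strand), chr11:48992247-48992346 (minus strand), chr3:142620563-142620662 (plus strand), chr3:142559944-142560043 (plus strand), chr3:142496834-142496933 (plus strand) and chr3:142530236-142530335 (plus strand).
Irgm1: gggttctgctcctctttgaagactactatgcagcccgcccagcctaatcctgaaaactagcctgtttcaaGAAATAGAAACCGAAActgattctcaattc
Irgm2: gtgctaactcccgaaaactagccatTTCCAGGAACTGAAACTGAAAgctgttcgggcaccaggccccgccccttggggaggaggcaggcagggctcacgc
Igtp: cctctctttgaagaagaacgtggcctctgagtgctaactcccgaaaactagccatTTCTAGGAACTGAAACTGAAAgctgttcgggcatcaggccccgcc
Ifi47: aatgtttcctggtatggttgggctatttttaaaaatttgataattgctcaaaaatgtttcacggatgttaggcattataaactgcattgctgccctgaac
Tgtp1: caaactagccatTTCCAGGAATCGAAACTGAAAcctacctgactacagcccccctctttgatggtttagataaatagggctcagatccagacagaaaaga
Gbp2: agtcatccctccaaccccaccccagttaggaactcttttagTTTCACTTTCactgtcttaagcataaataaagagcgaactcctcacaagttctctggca
Gbp3: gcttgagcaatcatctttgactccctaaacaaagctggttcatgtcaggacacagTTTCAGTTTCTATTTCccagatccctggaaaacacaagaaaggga
Gbp5: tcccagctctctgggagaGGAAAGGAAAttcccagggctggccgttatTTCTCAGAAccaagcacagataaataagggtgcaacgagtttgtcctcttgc
Gbp7: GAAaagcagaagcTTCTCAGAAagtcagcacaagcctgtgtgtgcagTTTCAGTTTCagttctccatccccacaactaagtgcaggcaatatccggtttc

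In the full windows an ISRE match was present in 8 of 9 members, against 3.49% of 27025 RefSeq promoters. A GAS match was present in 5 of 9 (8.47% of all promoters), namely Irgm2, Igtp, Tgtp1, Gbp5 and Gbp7. An EICE match was present in 4 of 9 (2.79% of all promoters), namely Irgm2, Igtp, Tgtp1 and Gbp5, and in Irgm2, Igtp and Tgtp1 its letters overlap both a GAS and an ISRE match. The windows of Irgm2 and Igtp, neighbours on chromosome 11, and of Tgtp1 carry the 3 matches in the same order. The GAS match starts 75 bases before the start site in Irgm2, 45 before it in Igtp and 88 before it in Tgtp1. The ISRE match of Gbp5 lies upstream of the printed bases. Irgm1 and Gbp3 each hold a pair of overlapping ISRE matches, and the capitals that open the Gbp7 line are the end of a GAS match that begins upstream. Ifi47, printed as the contrast, has none of the 3 in its window, and sequence outside the windows was not searched. These are matches of letters, not measured binding. The members fall into a few gene groups: Irgm1, Tgtp1 and Ifi47 lie between positions 48865245 and 49096987 of chromosome 11, Igtp and Irgm2 between 58199556 and 58222783 of it, and the 4 Gbp genes between 142496934 and 142638008 of chromosome 3.

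**Figure D1:**
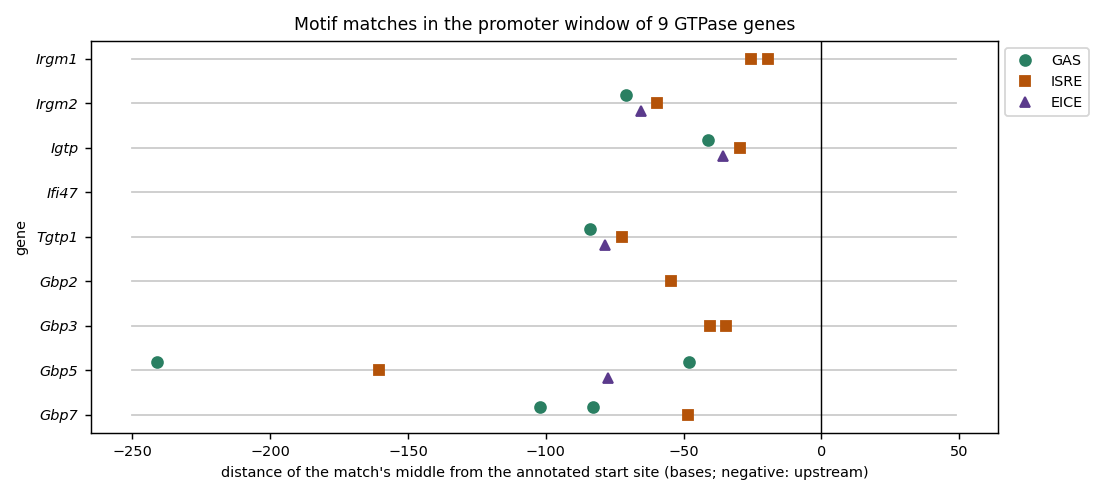
Positions of ISRE, GAS and EICE matches in the promoter windows of 9 members, as distance in bases from the annotated start site (vertical line); each symbol is 1 match and each grey line a searched window. Matches cluster within 106 bases before the start site, except 1 GAS and 1 ISRE match of Gbp5, and the line of Ifi47 is empty.

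The libraries held 40367056 to 51299056 unique molecular identifiers (UMIs, counts of captured RNA molecules) over 9074 to 16096 cell barcodes. After filtering, 44803 cells formed 48 clusters, of which 33 were named from marker genes, and 8.95% to 14.9% of the cells of a library stayed in unnamed clusters. Smc3-cKO replicate 1 stood apart in depth, with 3844.5 UMIs per barcode at the median against 2728 to 2806 in the other 3 libraries and the fewest cells kept (6850). Smc3-WT replicate 1 had the highest median mitochondrial share, 7.51% against 3.25% to 5.64%. Libraries shared 36 to 61 barcodes per pair. Smc3 itself was read at 75.5 and 91.3 CPM (counts scaled to a fixed total of UMIs per library and class) in the cDC-like cells of the Smc3-WT libraries and at 98.4 and 114 in those of the Smc3-cKO libraries. The deleted part of the gene is not given in the sources used here, and 3′ tags outside it would not report the deletion, so Smc3 does not check the labels here.

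Levels were taken from the counts of each gene summed over the cells of 1 class in 1 library. They are given as CPM, in the 12 tested classes scaled by edgeR's TMM factors, always in the order Smc3-WT replicate 1, Smc3-WT replicate 2, Smc3-cKO replicate 1, Smc3-cKO replicate 2. Each class name stands for cells like that type by their markers. The 10 members and the genes of the interferon lists were kept out of the genes used for clustering. When the 12 classes were ordered by mean level, all 11 pairs of neighbours overlapped in their library ranges for each of 9 members, and 10 of 11 for Tgtp1, so the order below describes broad differences only.

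**Figure D2:**
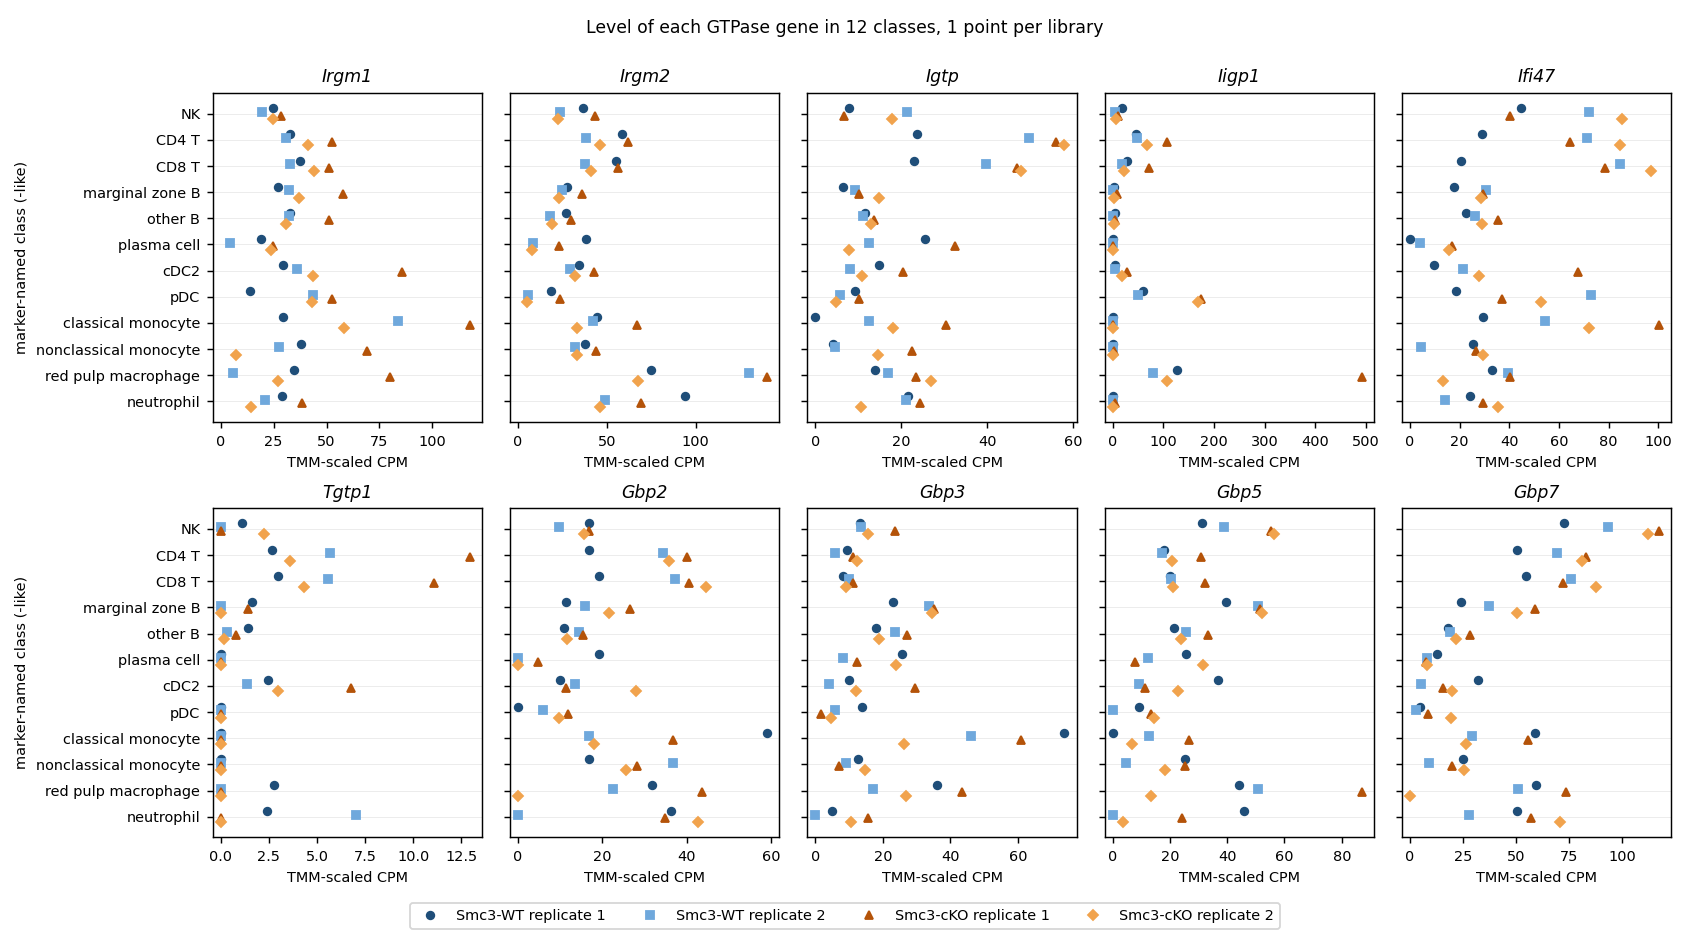
Level of each member (x axis, TMM-scaled CPM, linear, 1 scale per panel) in 12 marker-named classes (y axis), with 1 point per library and no averaging. Iigp1 is concentrated in red pulp macrophage-like, pDC-like and T-like cells, and Irgm1 has its highest point in Smc3-cKO replicate 1 in all 12 classes.

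Among the regulators, Irgm1 was read in every class. Among the tested classes its mean was highest in classical monocyte-like cells, at 29.5, 83.9, 118 and 58.1 CPM, and lowest in plasma cell-like cells, at 19.2, 4.17, 24.8 and 23.7 CPM. The wide monocyte range includes a library with 2 counts (Smc3-WT replicate 1, 22 cells). In B-like cells other than marginal zone cells, which rest on 509 to 714 counts a library, Irgm1 was at 32.6, 32.5, 51.2 and 31.0 CPM, with Smc3-cKO replicate 1 alone above the rest.

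Among the tested classes Irgm2 was highest in red pulp macrophage-like cells (74.7, 130, 140 and 67.3 CPM) and then in neutrophil-like cells (93.9, 49.2, 69.4 and 46.1 CPM), with no separation of the genotypes in either. Igtp had its highest well-counted level in T cells. In CD4 T-like cells it was at 23.6, 49.8, 56.1 and 58.0 CPM and in CD8 T-like cells at 22.9, 39.8, 47.0 and 47.8 CPM. Smc3-WT replicate 1 was low in both, and the other Smc3-WT library was near the Smc3-cKO libraries. A higher Igtp value in megakaryocyte- or platelet-like cells rests on 7 counts in all. Irgm2 and Igtp, adjacent genes with like promoter windows, had their highest means, among the tested classes, in different ones.

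Among the effectors, Iigp1 was highest in red pulp macrophage-like cells, the iron-recycling macrophages of the spleen, at 127, 79.1, 491 and 108 CPM. Plasmacytoid dendritic cell (pDC)-like cells followed at 59.8, 49.7, 174 and 168 CPM, and CD4 T-like cells at 45.5, 47.7, 108 and 68.8 CPM. Smc3-cKO replicate 1 held the highest value in each of these. In B-like cells other than marginal zone cells Iigp1 was at 3.97, 0.559, 4.09 and 2.18 CPM, although 11 to 62 counts stood behind each value. No Iigp1 count was found among 1916061 UMIs of the classical monocyte-like cells, which allows a level of up to 1.57 CPM over the 4 libraries and of 3.58 to 45.0 CPM in single ones (3 counts; counting error only). Neutrophil-like cells had 3 counts, all in Smc3-cKO replicate 1. Iigp1 thus ranged from no count to the highest level of any member among the tested classes.

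Within the CD4 T-like class, Iigp1 was highest in the cluster led by Il2ra and Ikzf2, markers of regulatory T cells, at 79.6, 52.7, 142 and 93.8 CPM (plain, not TMM-scaled). The cluster led by Igfbp4 and Ly6c1 had 38.7, 44.5, 99.5 and 55.5 CPM. In both clusters the 2 Smc3-cKO libraries were above the 2 Smc3-WT libraries. The CD4 T-like class also takes in a cluster led by Zbtb16 and Cxcr6, genes of innate-like T cells, with 23.8, 23.9, 107 and 47.6 CPM. In red pulp macrophage-like cells most counts came from 1 cluster led by Dgki and Mertk, where 77, 12, 143 and 5 Iigp1 counts were read in 112, 68, 50 and 22 cells.

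**Figure D3:**
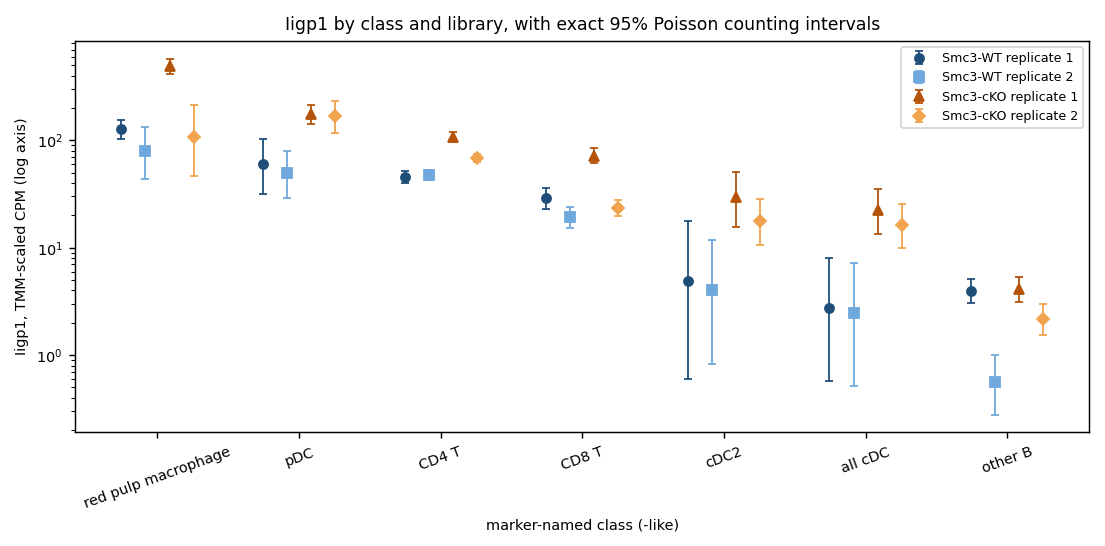
Iigp1 in 7 classes or sums of classes (x axis), in TMM-scaled CPM on a log axis, with 1 symbol per library and exact 95% Poisson intervals that cover counting error only. The Smc3-cKO libraries are at 174 and 168 CPM in pDC-like cells against 59.8 and 49.7 CPM in Smc3-WT. In red pulp macrophage-like cells only Smc3-cKO replicate 1, at 491 CPM, lies above both Smc3-WT intervals. Smc3-WT replicate 2, at 79.1 CPM, lies below the interval of Smc3-WT replicate 1 (103 to 156 CPM).

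Among the tested classes Ifi47 was highest in CD8 T-like cells, at 20.6, 84.6, 78.4 and 97.1 CPM. Smc3-WT replicate 1 was the low library there and the 3 others lay close together. The same library was lowest in CD4 T-like cells (29.2, 71.1, 64.4 and 84.7 CPM). Tgtp1 was rare, at 2.68, 5.65, 12.9 and 3.59 CPM in CD4 T-like cells and without a count in pDC-like and monocyte-like cells. Its near-identical neighbour Tgtp2, which was read at 15.9, 16.6, 25.3 and 14.4 CPM in CD4 T-like cells, can share reads with it, so the split between the 2 is uncertain.

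The GBP members differed from each other in where they were highest. Gbp5 had its highest level in mature cDC-like cells (led by Fscn1 and Ccl22 in 1 of their 2 clusters), at 109, 174, 99.6 and 503 plain CPM, from 41, 28, 5 and 34 counts. Those cells were too few to test (17 to 79 a library). Gbp2 was also highest there, at 37.2, 99.2, 99.6 and 74.0 CPM, but from 5 to 16 counts. Gbp7 was highest in NK-like cells (72.5, 93.6, 117 and 112 CPM), followed by CD8 T-like cells (54.9, 76.1, 72.4 and 87.5 CPM). Among the tested classes Gbp3 was highest in classical monocyte-like cells (73.7, 46.2, 60.9 and 26.3 CPM). Its value of 73.7 CPM comes from a library with 22 cells and 66712 UMIs in that class (Smc3-WT replicate 1). Marginal zone B-like cells were next (22.9, 33.5, 35.3 and 34.6 CPM). Over the 58 class-by-library sums, the Pearson correlation of log2(CPM + 1) between pairs of members ran from −0.18 to 0.50, as a description of points that share libraries and depth.

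The question for the genotypes was whether any of these genes differed between Smc3-cKO and Smc3-WT within a class. In the 12 classes and the sums of all cDC-like and all B-like cells, 86 of 140 pairs of member and class had enough counts for edgeR's quasi-likelihood test. None passed a Benjamini-Hochberg adjusted p of 0.05 over all genes of the class. By edgeR 12 of the 86 had an unadjusted p under 0.05, all of them higher in Smc3-cKO, and DESeq2 also called 0, with 9 under that unadjusted p. Genes with such a p and higher in Smc3-cKO made up 3.27% of those tested in all cDC-like cells (3 members), 3.71% in cDC2-like (2), 0.393% in CD4 T-like (2), 0.321% in marginal zone B-like (2), 1.22% in pDC-like (1), 1.02% in red pulp macrophage-like (1) and 0.268% in all B-like cells (1). In the tested classes with no such member that share was 0.925% in classical monocyte-like, 0.979% in neutrophil-like, 0.772% in NK-like, 0.371% in CD8 T-like and 0.235% in other B-like cells. The fitted log2 change was above 0 in 77 of 86 pairs, which share libraries and in part cells. That share was not counted over all genes, whose median log2 change ran from −0.043 in pDC-like to 0.017 in neutrophil-like cells. Type I interferon-stimulated genes, described below, also had mostly positive changes. These were 17 of 17 in CD8 T-like, 14 of 17 in CD4 T-like and 15 of 16 in marginal zone B-like cells. Genes that guide these GTPases to vacuoles had 1 of 8, 3 of 8 and 2 of 8 in the same classes. An exact permutation test of a single value in 2 against 2 libraries cannot go below p = 0.333.

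**Figure D4:**
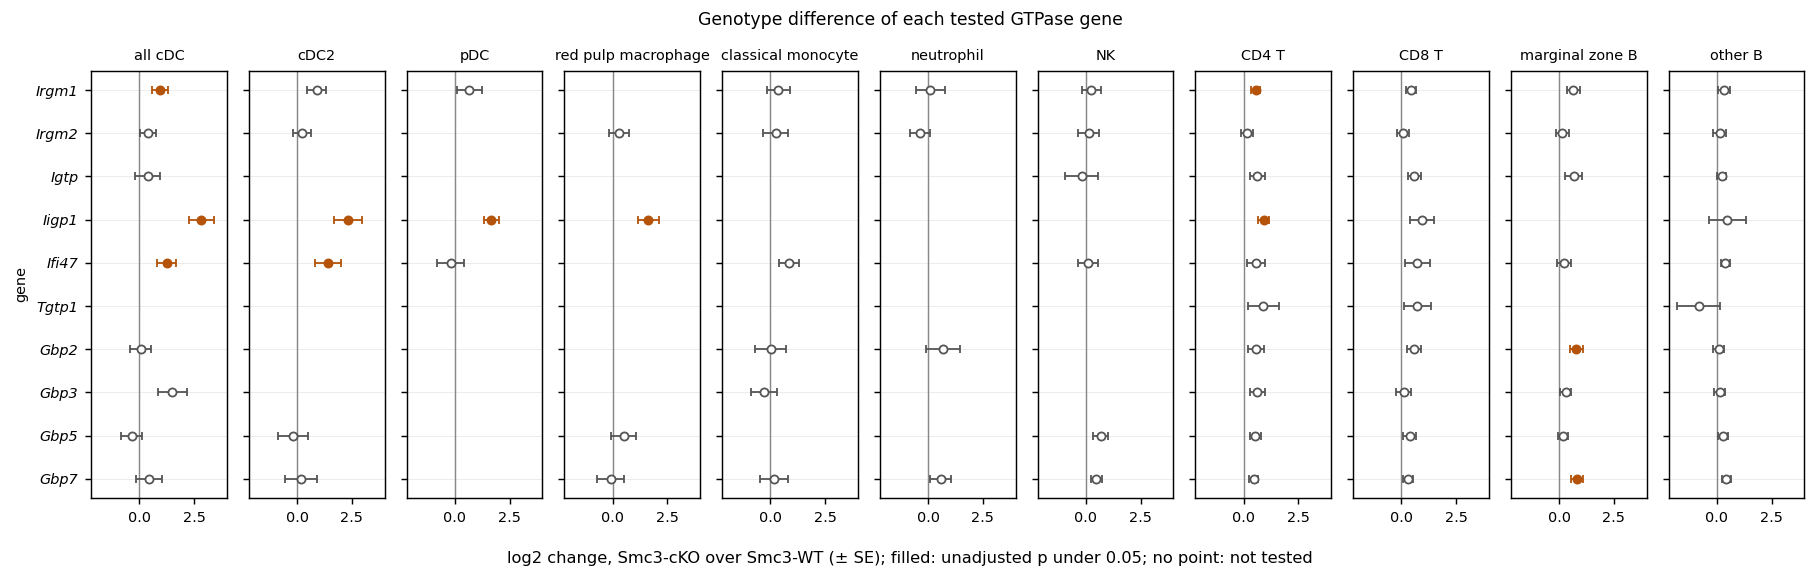
Log2 change of each member (y axis), Smc3-cKO over Smc3-WT, in 11 classes or sums, with standard errors; filled points have an unadjusted edgeR p under 0.05 and a missing point was not tested. Iigp1 has the largest change in the sum of all cDC-like cells, at 2.82, and most other points lie between 0 and 1.

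The sum of all cDC-like cells (157 to 269 cells a library) joins cDC1-, cDC2- and mature cDC-like cells in unequal parts: 71, 91 and 79 cells in Smc3-WT replicate 1, 61, 171 and 37 in Smc3-WT replicate 2, 61, 71 and 25 in Smc3-cKO replicate 1, and 18, 173 and 17 in Smc3-cKO replicate 2. A difference in this sum can therefore not be told apart from a difference in its makeup. In it Iigp1 was at 2.76, 2.48, 22.5 and 16.4 CPM, from 3, 3, 18 and 20 counts. Both Smc3-cKO libraries lay above both Smc3-WT libraries, with a log2 change of 2.82 ± 0.58 (SE) and an edgeR adjusted p of 0.064. Without the filter on low counts edgeR called Iigp1 in this sum (adjusted p = 0.000984) and in pDC-like (0.0399), red pulp macrophage-like (0.0183) and CD4 T-like cells (0.0164). Ifi47 was at 12, 18.2, 46.2 and 27.8 CPM there (log2 change 1.26 ± 0.44, edgeR adjusted p = 0.291). Irgm1 was at 22.1, 32.3, 63.7 and 41.7 CPM (log2 change 0.93 ± 0.37, edgeR adjusted p = 0.379). Gbp3 was at 9.21, 2.48, 22.5 and 11.5 CPM (log2 change 1.5 ± 0.67, edgeR adjusted p = 0.465). The groups did not overlap for these 4 genes and for Irgm2, that is for 5 of 9 tested members, against 18.2% of the 9143 genes tested in that sum. Over those genes 1661 were higher and 2092 lower without overlap (22.9%), or 2257 and 1592 in plain CPM, which left the same 5 members. Gbp2, Gbp5, Gbp7 and Igtp overlapped between the groups, and Gbp5 had a log2 change of −0.35 ± 0.49. Of all genes, edgeR called 91 in that sum, 0.995%, and no member was among them.

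The cDC2-like class is built from clusters that the genotypes filled unequally. The cluster led by Frmd5 and Adam23 held 79, 136, 22 and 75 cells, and the one led by Cyp7b1 and Cd209a held 12, 35, 49 and 98. Within the Frmd5 cluster Iigp1 was at 2.76, 5.07, 92.9 and 34.6 plain CPM, from 1, 3, 12 and 15 counts. Within the Cd209a cluster it was at 18, 0, 3.07 and 5.12 CPM, from 1, 0, 1 and 3 counts. Both Smc3-cKO libraries were thus above both Smc3-WT libraries in the Frmd5 cluster and not in the other. Irgm1 showed the same layout, with 24.8, 30.4, 108 and 50.7 CPM in the Frmd5 cluster and 54.0, 45.9, 73.6 and 37.5 CPM in the Cd209a cluster. Gbp3 had overlapping groups in the Frmd5 cluster (11.0, 5.07, 31.0 and 6.91 CPM) and was at 0, 0, 27.6 and 15.4 CPM in the Cd209a cluster. The Smc3-WT libraries held only 55557 and 196080 UMIs in the Cd209a cluster. There 1 count stood for 18 CPM in Smc3-WT replicate 1, so a value of 0 does not show absence. The difference between the clusters was not tested.

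**Figure D5:**
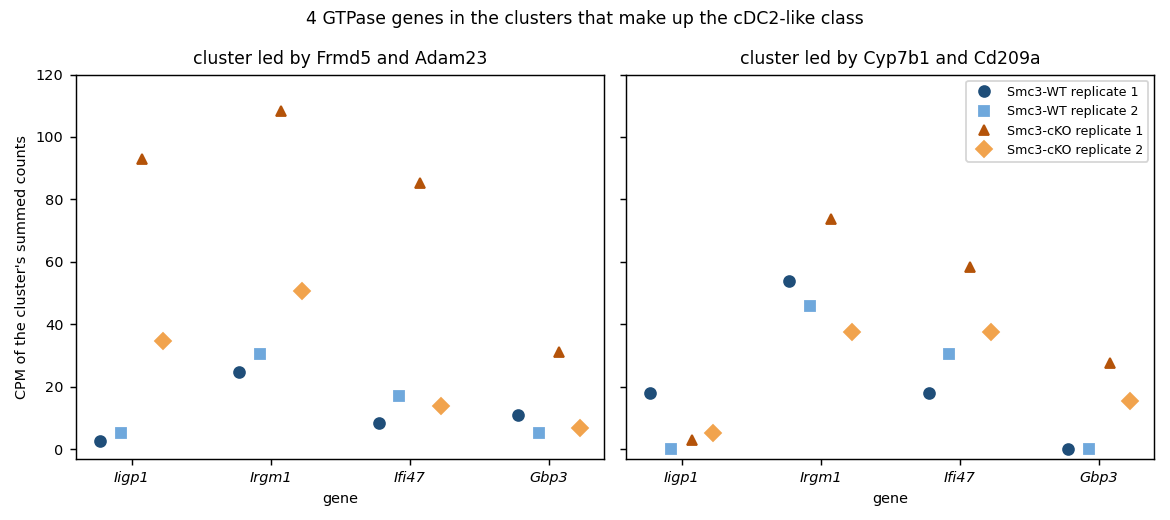
Plain CPM (y axis, linear) of Iigp1, Irgm1, Ifi47 and Gbp3 in the clusters of the cDC2-like class, with 1 symbol per library. Iigp1 reaches 92.9 and 34.6 CPM in the Smc3-cKO libraries in the left cluster and stays at or below 18 CPM in all libraries in the right one.

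In the cDC2-like class as a whole Iigp1 was at 4.93, 4.02, 29.4 and 17.9 CPM (log2 change 2.32 ± 0.64, edgeR adjusted p = 0.190) and Ifi47 at 9.86, 21.4, 67.8 and 27.8 CPM (1.42 ± 0.59, edgeR adjusted p = 0.467). The groups did not overlap for Iigp1, Ifi47 and Irgm1, that is for 3 of 6 tested members, against 19.6% of all genes, and edgeR called 0.532% of all genes in the class. The summed level of 7 pDC markers in the class was 973, 849, 2316 and 2563 CPM. Those of classical monocytes summed to 330, 400, 1375 and 793 CPM, so both lists were higher in the Smc3-cKO libraries, as Iigp1 was. In the pDC-like class Iigp1 was at 59.8, 49.7, 174 and 168 CPM, and in the classical monocyte-like class it had no count. The cDC1 markers (1984, 1906, 980 and 1115 CPM) and B markers (397, 135, 65.9 and 63.7 CPM) were lower in both Smc3-cKO libraries. The part of these in the members' levels was not tested, either over the class or within its clusters. In the Frmd5 cluster, where Iigp1 was higher in Smc3-cKO, the same 7 markers summed to 659, 508, 612 and 604 CPM and the groups overlapped. Of the pDC genes looked at singly there, Siglech was at 35.8, 10.1, 0 and 18.4 CPM and Ccr9 at 52.4, 27, 61.9 and 48.4 CPM. The red pulp macrophage markers, of the class with the most Iigp1, summed to 265, 72.6, 317 and 189 CPM in that cluster, also with overlap. Those of classical monocytes overlapped too, at 149, 87.8, 124 and 152 CPM. The B markers (386, 149, 69.7 and 46.1 CPM) and T markers (52.4, 16.9, 7.74 and 9.22 CPM) were lower there in both Smc3-cKO libraries. The part of these lists was not tested. In the Cd209a cluster the 7 pDC markers summed to 3024, 1877, 2991 and 4014 CPM, and the groups overlapped. The red pulp macrophage markers summed to 216, 45.9, 160 and 40.9 CPM there, and those of classical monocytes to 1512, 1341, 1871 and 1267 CPM. Siglech was at 126, 66.3, 276 and 249 CPM in that cluster, from 7, 13, 90 and 146 counts. Ccr9 was at 36, 51, 107 and 143 CPM, from 2, 10, 35 and 84 counts. Both genes were higher in both Smc3-cKO libraries, unlike the sum of the 7 pDC markers to which they belong. The summed T markers were lower in Smc3-cKO cDC2-like cells (50.2, 16.5, 6.59 and 9.80 CPM), with 0, 1, 3 and 2 of 6 markers at 0.

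In pDC-like cells Iigp1 was at 59.8, 49.7, 174 and 168 CPM, from 13, 17, 103 and 35 counts. The 2 Smc3-cKO values were close to each other and above both Smc3-WT values, with a log2 change of 1.66 ± 0.34 and an edgeR adjusted p of 0.729. The pDC markers were also higher in both Smc3-cKO libraries (12800, 13204, 15292 and 15822 CPM). Markers of B cells (1273, 603, 306 and 64.2 CPM) and of classical monocytes (870, 894, 441 and 587 CPM) were lower in both, and the part of these in the Iigp1 level was not tested. The high adjusted p stands beside 0.0% of 5491 genes called in this class of 47 to 99 cells a library. Irgm1 (13.8, 43.8, 52.4 and 43.2 CPM) and Ifi47 (18.4, 73.1, 37.2 and 52.8 CPM) overlapped between the groups, so 1 of 3 tested members separated them, against 13.9% of all genes.

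In red pulp macrophage-like cells the Iigp1 log2 change of 1.64 ± 0.49 (edgeR adjusted p = 1; 0.0611% of genes called) rested on Smc3-cKO replicate 1, at 491 CPM. Smc3-cKO replicate 2, at 108 CPM from 8 counts in 30 cells, lay between the Smc3-WT libraries at 127 and 79.1 CPM. Without Smc3-cKO replicate 1 the log2 change was −0.06. Without Smc3-cKO replicate 2 it was 2.18, with an edgeR adjusted p of 4.2e-06. No tested member separated the groups in this class, against 13.8% of all genes.

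T-like cells gave the deepest sums after B cells. In CD4 T-like cells 7 of 10 members (Irgm1, Igtp, Iigp1, Gbp2, Gbp3, Gbp5 and Gbp7) were higher in both Smc3-cKO libraries than in both Smc3-WT libraries, against 9.88% of 11716 genes. None was lower in both, against 13.3%. In plain CPM the split over all genes was 1470 higher and 1122 lower, against 1157 and 1564, with 7 members in both scales. All 10 had a positive log2 change, with a median of 0.57 against −0.01 over all genes of the class. Iigp1 had the largest, 0.91 ± 0.25 (edgeR adjusted p = 1, with 0.0% of genes called). Irgm1, at 32.9, 30.9, 52.7 and 41.3 CPM, had 0.55 ± 0.21. Gbp7, at 50.5, 69.2, 83.2 and 81.0 CPM, had 0.45 ± 0.21. For Igtp and Gbp2 (16.8, 34.2, 40.0 and 35.7 CPM) the separation was narrow, and Smc3-WT replicate 1 was far below the rest. That library also stood apart in markers of other cells within the CD4 T-like class. Its erythroid markers summed to 4945 CPM against 348, 1086 and 82.4 in the others, and its B markers to 642 CPM against 128, 150 and 80.4. Its T markers were lowest, at 1187 CPM against 2101, 1575 and 2044, and the part of these in the members' levels was not tested. Without Smc3-WT replicate 2, edgeR called Ifi47 (log2 change 1.37, adjusted p = 0.0339) and Igtp (1.28, adjusted p = 0.0458) in these cells, which leaves the low library as the only Smc3-WT one.

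In CD8 T-like cells 4 of 10 members separated the groups (Irgm1, Igtp, Gbp2 and Gbp5), against 10.9% of all genes, and all 10 log2 changes were positive with a median of 0.51 (−0.002 over all genes; 0.0% called). Iigp1 did not separate them, at 28.9, 19.1, 71.9 and 23.5 CPM. Within this class the cluster led by Ccl5 and Klra7, effector and memory genes, had 9.40, 8.31, 105 and 11.1 plain CPM of Iigp1, so that its high value was in 1 library. The low value of Ifi47 in Smc3-WT replicate 1 gave a log2 change of 2.10 (edgeR adjusted p = 0.0341) when Smc3-WT replicate 2 was left out and 0.73 ± 0.58 with all libraries.

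In NK-like cells 3 of 6 tested members separated the groups, against 12.4% of all genes (0.0414% called). Gbp5 was at 31.2, 39.0, 55.3 and 56.2 CPM (log2 change 0.68 ± 0.34) and Gbp7 at 72.5, 93.6, 117 and 112 CPM (0.48 ± 0.27), and Irgm1 was the third, with a change of 0.26 ± 0.43. The edgeR adjusted p was 1 for each. In neutrophil-like cells 1 of 4 tested members (Gbp7) separated the groups, against 13.8% (0.0% called), and in classical monocyte-like cells 1 of 6 (Ifi47), against 16.8% (0.0% called) higher and 13.6% lower over all genes. In nonclassical monocyte-like and plasma cell-like cells no member had enough counts to be tested; of all genes 0.0209% and 0.0537% were called there, and 1.86% and 0.483% had an unadjusted edgeR p under 0.05 and were higher in Smc3-cKO.

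Among B-like cells the marginal zone class, blood-facing B cells of the spleen, had 6 of 8 tested members higher in both Smc3-cKO libraries (Irgm1, Igtp, Gbp2, Gbp3, Gbp5 and Gbp7), against 12.3% of all genes (0.0% called). Gbp7 was at 23.9, 37.1, 58.9 and 50.6 CPM there (log2 change 0.82 ± 0.27, edgeR adjusted p = 1). Gbp2 was at 11.4, 16.0, 26.5 and 21.6 CPM (0.78 ± 0.30, edgeR adjusted p = 1). For Gbp3 and Gbp5 the separation was of under 2 CPM between the nearest libraries. The median of the 8 log2 changes was 0.47, against 0.01 over all genes of the class. In the other B-like cells 3 of 10 members separated the groups (Igtp, Ifi47 and Gbp7), against 9.49% (0.0% called), with a median log2 change of 0.25 against −0.001.

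The difference between the genotype effects in all cDC-like and all B-like cells was tested with an interaction term in a fit that holds each library as a block. None of the 10 members passed, against 1.71% of 13511 genes. The estimate was 2.13 ± 0.92 for Iigp1 (edgeR adjusted p = 0.381), 1.37 ± 0.59 for Gbp3 (0.381) and 0.94 ± 0.36 for Ifi47 (0.301), each with an unadjusted p under 0.05. For Gbp7, higher in the B-like sum of Smc3-cKO by 0.58 ± 0.19, it was −0.01 ± 0.57.

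One library carried many of the high values. Over 105 pairs of member and single class with at least 10 counts, the highest library was Smc3-cKO replicate 1 in 67, Smc3-cKO replicate 2 in 22, Smc3-WT replicate 1 in 12 and Smc3-WT replicate 2 in 4. The same count was not made over all genes, so whether this is particular to the members cannot be told. Irgm1 was highest in Smc3-cKO replicate 1 in 12 of 12 classes and Irgm2 in 10 of 12. That library was also the one with the most UMIs per cell, and the part of depth in these levels was not tested. Without it, 65 of 87 tests had a log2 change above 0, and without Smc3-WT replicate 2, 77 of 102, against 77 of 86 with all libraries.

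Other genes of the interferon response, grouped by list, gave no call in any class. Of 12 other IRG and GBP genes with a row, 5 were tested in all cDC-like cells, with 2 positive log2 changes and a median of −0.68 (−0.01 over all genes). Gbp8, a GBP family member, was lower in both Smc3-cKO libraries (98.5, 70.3, 35.0 and 34.4 CPM, log2 change −1.28 ± 0.30, edgeR adjusted p = 0.0987). Gvin1, a very large interferon-inducible GTPase, was at 42.4, 14.9, 95 and 37.6 CPM (1.19 ± 0.56, edgeR adjusted p = 0.502). Gbp8 thus lay on the other side of 0 from Gbp3 in the same cells. In CD4 T-like cells Gm4951, an IRG family gene picked after its values were seen, was at 2.68, 2.67, 9.24 and 8.90 CPM (1.75 ± 0.35, edgeR adjusted p = 1).

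For the interferon-gamma signal itself, 10 of 12 genes were tested in all cDC-like cells, 3 of them with a positive log2 change, and the median was −0.38. In the cDC2-like class alone 5 of 10 were positive, with a median of 0.00 (0.01 over all genes). Jak2, the kinase bound to the receptor, was at 887, 751, 384 and 563 CPM (log2 change −0.79 ± 0.32, edgeR adjusted p = 0.401), and in cDC2-like cells its change was −0.52 ± 0.35 (edgeR adjusted p = 0.734). Ifng, the ligand, had its highest level in NK-like cells, at 14.5, 9.75, 15.1 and 18 CPM from 13, 5, 9 and 8 counts, and had 1 count in all cDC-like cells together. In CD4 T-like cells Ifng was at 1.61, 4.08, 0.62 and 4.45 CPM, from 9, 26, 2 and 31 counts, and the groups overlapped.

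Of 13 other interferon-gamma targets 11 were tested in all cDC-like cells, 6 with a positive log2 change (median 0.10). Ly6a, the Sca-1 antigen, was at 17.5, 9.92, 52.5 and 46.6 CPM (log2 change 1.85 ± 0.39, edgeR adjusted p = 0.0711). Cd274, the checkpoint ligand PD-L1, was at 168, 133, 45.0 and 115 CPM (−0.88 ± 0.39, edgeR adjusted p = 0.464), and its change in cDC2-like cells was −1.03 ± 0.37 (edgeR adjusted p = 0.363). The 17 type I interferon-stimulated genes gave 13 positive log2 changes of 15 tested there, with a median of 0.56. Ifi44 was at 3.68, 0.83, 22.5 and 13.1 CPM (2.92 ± 0.72, edgeR adjusted p = 0.112) and Irf7, the factor that amplifies type I interferon, at 12.9, 18.2, 57.5 and 36.0 CPM (1.56 ± 0.40, edgeR adjusted p = 0.129). Members of the ubiquitin-like system that guides IRGs and GBPs to vacuoles gave 6 positive changes of 8 and a median of 0.08, with Gabarap at 145, 280, 277 and 267 CPM (0.36 ± 0.33) and Map1lc3b at 34.1, 81.1, 68.7 and 63.8 CPM (0.19 ± 0.39, edgeR adjusted p = 0.929).

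The genes whose pattern was most like that of the members were ranked by the Pearson correlation of log2(CPM + 1) with the members' sum over the 58 class-by-library sums, among 7130 genes with a mean of at least 20 CPM. The first 6 were Ifit2 (r = 0.70), Bcl9l (0.67), Ddx60 (0.66), Phf23 (0.61), Dnm2 (0.60) and Xaf1 (0.59). The points share libraries, depth and, for sums of neighbouring classes, like cells, so the values are descriptive. Ifit2, Ddx60 and Xaf1 are known interferon-stimulated genes.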

How the data were processed

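RNA of spleen cells was counted per gene and cell in 4 10x libraries. The deposited counts are raw UMI counts made with Cell Ranger 7.0.0, per the file headers, and mm10 is the build in the submitters' processing notes. The other samples of the series were not analysed here. Barcodes under 200 genes or over 10% mitochondrial UMIs were dropped, and doublets called by Scrublet were removed (1.03% to 6.41% of a library, against 7.26% to 12.9% expected, so doublets remain). Cells were clustered with scanpy 1.11.5 (2000 variable genes without the members and listed genes, 30 components, Leiden resolution 1, myeloid clusters again with 20) and named from marker lists by a scoring rule set after seeing the data. A cluster of 2172 Egr3-led B cells stayed unnamed by it. The UMI counts of a class were added up within each library, and classes with at least 20 cells in every library were tested with edgeR 4.0.16 (filterByExpr, TMM, quasi-likelihood F test, Benjamini-Hochberg within the class); SE is the absolute log2 change over the root of F. The counts are of 3′ molecules and carry no gene length. All 10 members are named; of each list, the 2 genes with the largest absolute change in all cDC-like cells, and those marked otherwise, and Ifng as the ligand; 1 gene that the rule names is not reported here. The members and lists were chosen with earlier results of these data known. The test was checked on simulated counts. In all cDC-like cells (9143 genes) 65 of 89 genes changed by a log2 of 2 and 100 of 111 changed by 3 were recovered. Unchanged genes gave 3 false calls there. In the other B-like cells (13197 genes) 78 of 96 and 96 of 104 were recovered, with 19 false calls. The simulated counts were drawn independently for each gene, without shifts shared by the genes of a library. Recovery was counted over genes of all levels and does not describe members with few counts. Alternatives were DESeq2 1.42.0, no TMM, no filter on low counts, the replicate number as a block, each library left out, stricter cell filters (500 genes, 5% mitochondrial), Leiden resolution 2, and a per-cell marker gate.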

Additional observations from a re-analysis of the deposited data

Results flagged for a closer look

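Gbp7 stood on opposite sides of the genotype comparison in different classes. In plasma cell-like cells it was at 12.8, 8.33, 7.74 and 7.91 CPM (Smc3-WT replicates 1 and 2, then Smc3-cKO replicates 1 and 2), with both Smc3-cKO libraries lower (mean 7.83 CPM), from 2, 2, 5 and 1 counts. Of all genes tested in plasma cell-like cells, 12.7% were lower in both Smc3-cKO libraries. In the untested mature cDC-like cells both were also lower, from 3, 1, 0 and 0 counts. In 7 other classes or sums both Smc3-cKO libraries were higher, where 9.49% to 13.9% of all genes were. The plasma cell value was too low in counts to be tested, and the difference between classes was not tested.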

How the results depend on the processing

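No member that could be tested passed the adjusted threshold with all libraries, under DESeq2, without TMM, with stricter cell filters, at Leiden resolution 2 or with the marker gate. Iigp1 was not tested in all cDC-like cells at Leiden resolution 2 (5 members tested) or by the gate, nor in cDC2-like cells with stricter filters (5 tested) or at Leiden resolution 2 (3 tested), and DESeq2 gave it no adjusted p in cDC2-like cells. Without the filter on low counts edgeR called 1 member, Iigp1, in each of pDC-like, red pulp macrophage-like, CD4 T-like and all cDC-like cells (adjusted p 0.0399, 0.0183, 0.0164 and 0.000984). With the replicate number as a block it called 1, Iigp1 in all cDC-like cells (log2 change 2.82, adjusted p = 0.000859), and no other member. Only 2 pairs share a number and no label ties them. The same-numbered deviations correlated by 0.06 to 0.51, and by −0.12 in neutrophil-like cells, where crossing the numbers (chosen after seeing the data) called 0 of 4. Leaving out 1 library gave 0 to 1 calls in cDC2-like cells (1, Ifi47, without Smc3-WT replicate 2), 0 to 1 in red pulp macrophage-like cells (1 without Smc3-cKO replicate 2), 0 to 2 in CD4 T-like and 0 to 1 in CD8 T-like cells, and 0 to 1 for the interaction (1, Gbp3, estimate 2.71 without Smc3-WT replicate 1). Of the 12 pairs with an unadjusted p under 0.05, 1 changed sign: Iigp1 in red pulp macrophage-like cells, with −0.0585 when Smc3-cKO replicate 1 was left out (2.18 without the other Smc3-cKO library). Iigp1 in all cDC-like cells ran from 2.60 to 4.76 on the log2 scale, with adjusted p from 0.000859 to 0.461. The share of positive log2 changes ran from 74.7% (without Smc3-cKO replicate 1) to 90.7% (marker gate). The 91 genes called in all cDC-like cells became 0 without Smc3-cKO replicate 2, 17 without Smc3-cKO replicate 1, 4 by the gate, 43 at Leiden resolution 2, 165 by DESeq2, 577 without the filter, 598 with the block and 699 without Smc3-WT replicate 2. The 40 called in cDC2-like cells became 74 by DESeq2, 332 without the filter, 69 with the block, 79 with stricter filters, 98 at Leiden resolution 2, and 184, 780, 33 and 67 without Smc3-WT replicates 1 and 2 and Smc3-cKO replicates 1 and 2. The marker gate left too few cDC2-like, CD4 T-like, CD8 T-like and monocyte-like cells in a library for a value, and the stricter filters too few pDC-like, red pulp macrophage-like, plasma cell-like and classical monocyte-like cells. In plain CPM (an alternative chosen after seeing the data), non-overlap was the same for members except for 2 in pDC-like and 5 in CD8 T-like cells, while over all genes of all cDC-like cells the split moved from 1661 higher and 2092 lower to 2257 and 1592. Depth limits most classes: Iigp1 in cDC2-like cells rested on 36 counts.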
